A study of Mus musculus with 8 samples.

Results

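FGF ligands, their receptors and the genes that answer to them were followed through 8 RNA-seq libraries of mouse pluripotent stem cells. The 10 genes were Fgf4, Fgf5, Fgf8, Fgfr1, Fgfr2, Spry2, Spry4, Dusp6, Etv4 and Etv5, taken by symbol from the gene tables of every library, out of 23064 symbols listed there. A unit was 1 gene, or a group of genes where the tables join them, and it was tested where 2 or more of the 8 libraries reached 1 FPKM. That left 11903 units, with all 10 genes among them. FPKM are fragments scaled to transcript length and library size.

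The libraries fell into 4 groups of 2. Dnd1-KD cells are embryonic stem (ES) cells of 129/Ola strain, genotype WT, with a knockdown of Dnd1, an RNA-binding protein gene of the germ line, at passages 10 to 12; how it was knocked down is not given in the sources used here. CDGC1 and CDGC6 are 1 line each, derived from nascent teratoma cells of the testis of new-born mice and kept to passages 15 to 18. Both are Dnd1ter/ter, on 129Sv, and carry the Oct4deltaPE-GFP reporter. Control cells are wild-type E14tg2a ES cells of 129/Ola strain at passages 10 to 12. All cells were grown in DMEM with serum and LIF, a cytokine that holds ES cells undifferentiated. Between derived lines and control, strain, origin, genotype and passage cannot be told apart, since they change as one. No label says whether the libraries within a group stem from different cultures, so a p-value covers the variation of these libraries alone, and that may be technical.

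FGFs are secreted growth factors that bind FGF receptors together with heparan sulphate and switch on the RAS, RAF, MEK and ERK relay. In mouse ES cells FGF4 is the known autocrine ligand, and ERK activity moves the cells out of the naive state towards the epiblast. Cells of the epiblast are known to switch on Fgf5, and Fgf8 is expressed in the primitive streak. The relay is known to induce its own brakes, the Sprouty proteins and the ERK phosphatase DUSP6, as well as the ETS transcription factors ETV4 and ETV5.

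The pluripotency gene Pou5f1 was at 531 and 457 FPKM in Dnd1-KD, 951 and 1027 FPKM in CDGC1, 1125 and 1339 FPKM in CDGC6, and 944 and 934 FPKM in control. The summed level of 7 pluripotency markers (Pou5f1, Sox2, Nanog, Sall4, Lin28a, Utf1 and Dppa4) was 896 to 1048 FPKM in Dnd1-KD, 1475 to 1506 FPKM in CDGC1, 1862 to 2201 FPKM in CDGC6, and 1719 to 1724 FPKM in control. In CDGC1 Pou5f1 gave most of that sum. Dppa4 was at 0.317 and 0.657 FPKM there, against 110 and 112 FPKM in control. Utf1 was at 70.9 and 77.9 FPKM against 195 and 210 FPKM, and Sox2 at 75.1 and 79.6 FPKM against 158 and 167 FPKM. Sall4 was also lower there, Lin28a and Pou5f1 were higher in both libraries, and Nanog overlapped control. The part of these markers in the FGF gene levels was not tested. Dnd1 itself was listed at 0 in the CDGC1, CDGC6 and control libraries and was joined with the neighbouring gene Hars in the Dnd1-KD libraries (57.6 and 53.9 FPKM), so the knockdown could not be checked and the libraries go by their label. The intervals that the files give around each value implied 10700000 to 18000000 fragments per library. For the 10 genes at 1 FPKM or more, leaving out Spry4 in Dnd1-KD, an interval reached between 2.72% and 24.6% above its value (median 5.12%).

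On mm10 (RefSeq, GRCm38.p6) Fgf4 lies on chromosome 7 at 144861386 to 144865245, plus strand, Fgf5 on chromosome 5 at 98254184 to 98277033, plus strand, and Fgf8 on chromosome 19 at 45736491 to 45742941, minus strand. Fgfr1 spans 25518759 to 25575718 on chromosome 8, plus strand, with the antisense gene Gm16159 overlapping it, and Fgfr2 spans 130162451 to 130266808 on chromosome 7, minus strand. The library kit named in the labels does not mark strand, so reads of Gm16159 and Fgfr1 cannot be told apart where they overlap. Spry2 is on chromosome 14 (105891947 to 105896819, minus) and Dusp6 on chromosome 10 (99263231 to 99267489, plus). Etv4 is on chromosome 11 (101769747 to 101785310, minus) and Etv5 on chromosome 16 (22381313 to 22439570, minus). Fgf5 was joined with 1700007G11Rik in the table of the first CDGC1 library. Both symbols were therefore summed in all libraries, to which 1700007G11Rik gave at most 4.66 FPKM where it had an entry of its own.

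The 250 bases before the annotated start are shown for 4 of these genes. Fgf4 and Fgf5 are shown because they went opposite ways in CDGC1. Dusp6 and Etv5 are shown because both were lower in Dnd1-KD and went opposite ways in CDGC1. The sequences are from RefSeq (GRCm38.p6), 5′ to 3′ on the strand of the gene, and capitals mark the motif CCAAT and the ETS motif CCGGAA on either strand.
Fgf4, chr7:144861136-144861385, plus strand: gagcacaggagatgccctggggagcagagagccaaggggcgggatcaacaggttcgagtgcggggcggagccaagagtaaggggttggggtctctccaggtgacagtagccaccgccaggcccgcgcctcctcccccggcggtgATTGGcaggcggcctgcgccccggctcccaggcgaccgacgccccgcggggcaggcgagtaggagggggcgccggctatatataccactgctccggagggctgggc
Fgf5, chr5:98253934-98254183, plus strand: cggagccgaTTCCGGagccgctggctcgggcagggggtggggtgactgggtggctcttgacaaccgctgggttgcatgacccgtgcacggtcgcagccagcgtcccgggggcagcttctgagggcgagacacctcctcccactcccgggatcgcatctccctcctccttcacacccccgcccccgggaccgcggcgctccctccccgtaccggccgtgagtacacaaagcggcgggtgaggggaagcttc
Dusp6, chr10:99262981-99263230, plus strand: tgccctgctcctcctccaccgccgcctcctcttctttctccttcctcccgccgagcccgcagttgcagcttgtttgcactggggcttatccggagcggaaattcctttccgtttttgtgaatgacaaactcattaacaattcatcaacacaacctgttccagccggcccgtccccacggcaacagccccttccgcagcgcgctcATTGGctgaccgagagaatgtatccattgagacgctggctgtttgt
Etv5, chr16:22439571-22439820, minus strand: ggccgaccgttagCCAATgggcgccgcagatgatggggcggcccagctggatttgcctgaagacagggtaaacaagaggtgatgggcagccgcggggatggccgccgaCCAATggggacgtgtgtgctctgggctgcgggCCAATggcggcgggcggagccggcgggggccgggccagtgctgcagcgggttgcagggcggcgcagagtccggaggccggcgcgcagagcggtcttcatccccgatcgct
The promoter table held 6 of the 10 genes. CCAAT (or ATTGG) occurred once in the Fgf4 window, 106 bases before the start, and once in the Dusp6 window, 46 bases before it. It occurred 3 times in the Etv5 window shown, at 237, 142 and 110 bases before the start, once in the window of another Etv5 start, and in none of the windows of Fgf5, Fgfr2 and Spry2. Of all 32851 windows of this length, 33.8% held it. CCGGAA (or TTCCGG) was found in the Fgf5 window only, against 12.0% of all windows, and TATAAA (or TTTATA) in none of the 7 windows of these 6 genes, against 12.4%. Only these exact letters were searched. The Fgf4 window holds tatatata near the gene start, a TA-rich stretch that this search does not count. GGGCGG (or CCGCCC) occurred 2 times in the Fgf4 window, once in that of Fgf5 and 3 times in the Etv5 window shown, against 32.7% of all windows. The windows of Fgf4, Fgf5 and Etv5 had GC contents of 71.2%, 70.8% and 71.2%, above the upper quartile of 61.2% over all windows, and that of Dusp6 had 56.4%.

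In Dnd1-KD 8 of the 10 genes were lower and none higher, also at an unadjusted p under 0.05, where 15.5% of all units tested were lower and 20.7% higher. In CDGC1 4 were higher and 5 lower (23.5% and 26.9% of all units), and in CDGC6 2 were higher and 2 lower (8.43% and 10.2% of all units). CDGC1 against CDGC6 had 4 higher and 3 lower (23.0% and 24.1% of all units). The median log2 difference of the 10 genes was −0.77 in Dnd1-KD, −0.049 in CDGC1 and −0.16 in CDGC6, each against control, where the medians of all units were 0.022, −0.032 and −0.011. Log2 differences were taken on FPKM + 1 and carry a standard error (SE). Adjusted p-values come from limma with Benjamini-Hochberg adjustment over all units. On this scale the change of a gene at a few FPKM is understated. In Dnd1-KD the summed level of the pluripotency markers was lower too, at 896 to 1048 FPKM against 1719 to 1724 FPKM in control, and Sox2 was at 98.4 and 76.8 FPKM, against 158 and 167 FPKM in control. The part of these markers in the lower levels was not tested.

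**Figure D1:**
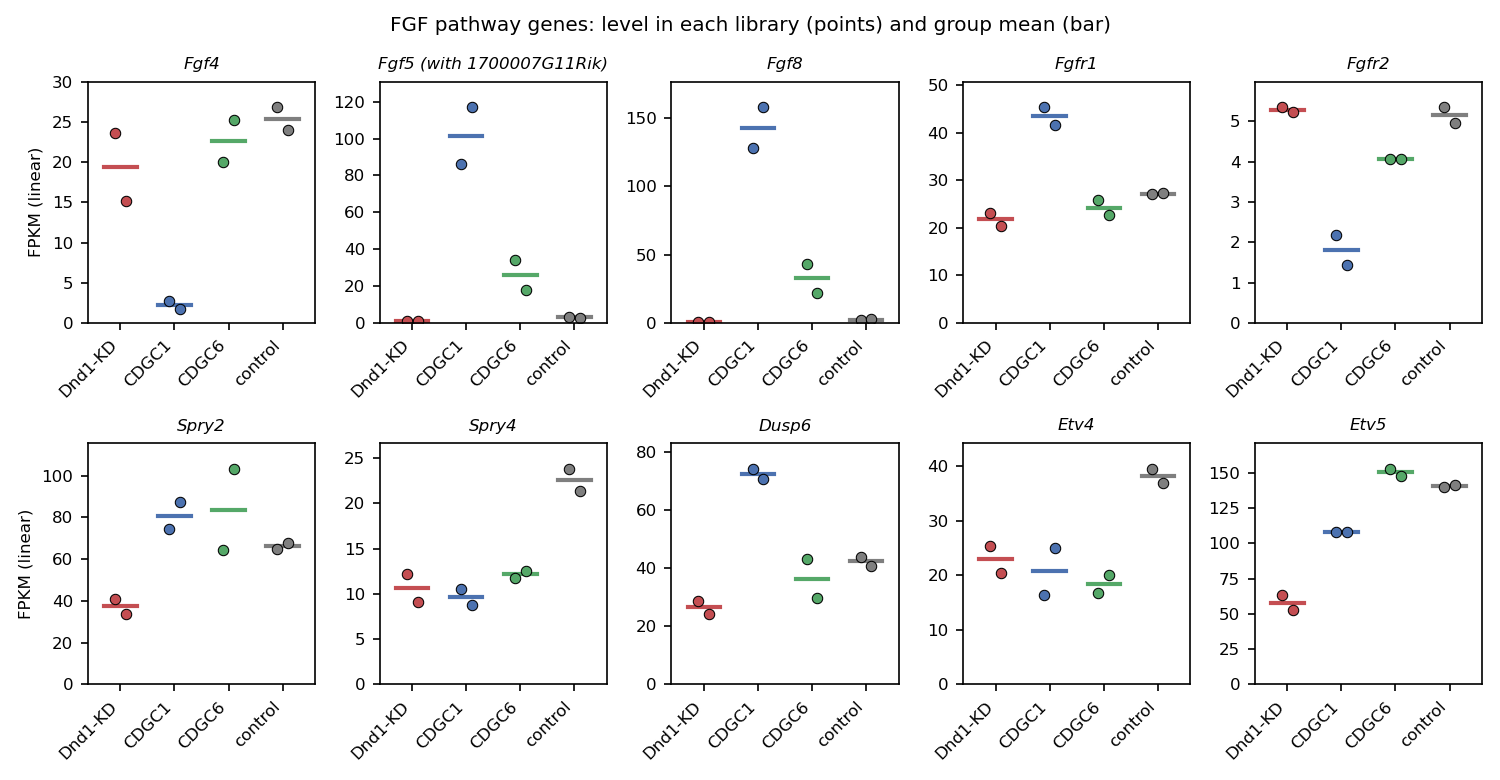
Level of each of the 10 genes in FPKM (linear axis from 0) in the 2 libraries of each group (points), with the group mean as a bar. Fgf5 and Fgf8 are highest in both CDGC1 libraries, Fgf4 and Fgfr2 are lowest there, and Spry4 and Etv4 are highest in the 2 control libraries.

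The 3 ligands gave the widest differences of the 10 genes in CDGC1, and Fgf5 and Fgf8 did so in CDGC6. Fgf8 was at 0.338 and 0.243 FPKM in Dnd1-KD, 128 and 158 FPKM in CDGC1, 43.0 and 22.1 FPKM in CDGC6, and 2.04 and 2.48 FPKM in control. Fgf5 was at 0.896 and 0.890 FPKM in Dnd1-KD, 86.2 and 117 FPKM in CDGC1, 34.3 and 18.0 FPKM in CDGC6, and 3.29 and 2.73 FPKM in control. Both genes had the same order of groups, CDGC1 above CDGC6, CDGC6 above control and control above Dnd1-KD, with no overlap between libraries of neighbouring groups. By limma every step of that order passed for Fgf8 (2.16, 3.29 and 1.34 on the log2 scale, adjusted p = 0.00180, 0.00202 and 0.0169) and for Fgf5 (1.97, 2.70 and 1.08, adjusted p = 0.00271, 0.00382 and 0.0336). The Dnd1-KD steps were lost with a pseudocount of 5 (adjusted p = 0.209 for Fgf8 and 0.226 for Fgf5). The deposited interval of Fgf8 in the second Dnd1-KD library ran from 0 to 0.497 FPKM.

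Fgf4, which OCT4 and SOX2 are known to activate, did not follow the other ligands. It was at 23.6 and 15.2 FPKM in Dnd1-KD, 2.67 and 1.76 FPKM in CDGC1, 20.0 and 25.3 FPKM in CDGC6, and 26.9 and 24.0 FPKM in control. Both CDGC1 libraries lay far below the other 6, with a log2 difference of −3.05 ± 0.24 (SE) from control (adjusted p = 0.000176) and of −2.88 ± 0.24 from CDGC6 (adjusted p = 0.000290). CDGC6 (−0.17 ± 0.24, adjusted p = 0.656) and Dnd1-KD (−0.41 ± 0.24, adjusted p = 0.235) did not pass against control, and CDGC6 overlapped both of the other groups.

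The balance of the 2 ligands therefore differed between groups, as a ratio of levels per transcript length within a library. Fgf5 over Fgf4 was 0.0379 and 0.0587 in Dnd1-KD, 32.2 and 66.3 in CDGC1, 1.71 and 0.712 in CDGC6, and 0.122 and 0.113 in control. Fgf4 exceeded Fgf5 in both control and both Dnd1-KD libraries, Fgf5 exceeded Fgf4 in both CDGC1 libraries, and the 2 CDGC6 libraries fell on either side of 1. Marker genes of other cell states differed between the groups as well. The summed level of 8 naive ES cell markers (Zfp42, Esrrb, Klf2, Klf4, Tfcp2l1, Tbx3, Nr0b1 and Prdm14) was 355 to 454 FPKM in Dnd1-KD, 5.55 to 6.16 FPKM in CDGC1, 409 to 554 FPKM in CDGC6, and 596 to 627 FPKM in control. In CDGC1 2 of these 8 reached 1 FPKM in both libraries and Zfp42 was at 0.022 and 0 FPKM, while all 8 did in the other groups. The summed level of 6 primitive streak and mesoderm markers (T, Eomes, Mixl1, Gsc, Mesp1 and Tbx6) was 5.23 to 5.83 FPKM in Dnd1-KD, 140.4 to 187 FPKM in CDGC1, 56.0 to 93.6 FPKM in CDGC6, and 23.3 to 29.5 FPKM in control. The summed level of 7 epiblast or primed cell markers (Otx2, Pou3f1, Zic2, Lef1, Dnmt3b, Sfrp2 and Cer1) was 70.4 to 80.4 FPKM in Dnd1-KD, 272 to 345 FPKM in CDGC1, 363 to 385 FPKM in CDGC6, and 156 to 188 FPKM in control. The sum of that list was highest in CDGC6, unlike Fgf5 and Fgf8. Dnmt3b gave most of it there, at 262 and 255 FPKM, against 144 and 180 FPKM in CDGC1. Lef1 and Sfrp2 were also higher in CDGC6 than in CDGC1. Pou3f1 was higher in CDGC1 (47.0 and 49.5 FPKM against 30.1 and 27.6 FPKM in CDGC6), as was Zic2 (47.3 and 56.1 FPKM against 27.0 and 28.6 FPKM). Otx2 and Cer1 overlapped between the lines. In every group 6 of the 7 markers reached 1 FPKM in both libraries. Of the 6 streak and mesoderm markers, 4 reached 1 FPKM in both libraries of CDGC1 and of CDGC6, and 2 did in Dnd1-KD and in control. Within CDGC6 the first library had more Fgf5 and Fgf8 than the second, and also more T (69.1 against 43.7 FPKM) and Eomes (15.4 against 8.47 FPKM). Their part in the ligand levels was not tested. In bulk RNA, fewer cells of a type and less RNA per cell cannot be told apart.

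Markers of further cell types were read as well. The 3 leukocyte markers with values of their own (Ptprc, Lyz2 and Csf1r) were below 0.12 FPKM in every library, and Cd68 was joined with Eif4a1. The summed level of 7 fibroblast markers was 10.9 to 10.98 FPKM in Dnd1-KD, 38.1 to 39.6 FPKM in CDGC1, 24.99 to 32.7 FPKM in CDGC6, and 7.05 to 7.71 FPKM in control. That of 6 endoderm markers was 4.28 to 5.35 FPKM in Dnd1-KD, 8.90 to 41.1 FPKM in CDGC1, 3.53 to 7.20 FPKM in CDGC6, and 1.504 to 1.63 FPKM in control, with Foxa2, also known from the anterior streak, at 8.15 and 38.6 FPKM in CDGC1. At least 1 FPKM in both libraries was reached by 3, 5, 6 and 2 of the 7 fibroblast markers and by 2, 1, 1 and 0 of the 6 endoderm markers in Dnd1-KD, CDGC1, CDGC6 and control. The part of both lists in the FGF gene levels was not tested.

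The receptors also diverged in CDGC1. Fgfr1, the main FGF receptor of the epiblast, was at 23.2 and 20.5 FPKM in Dnd1-KD, 45.4 and 41.6 FPKM in CDGC1, 25.8 and 22.8 FPKM in CDGC6, and 27.1 and 27.3 FPKM in control. Fgfr2, the receptor known for its role in primitive endoderm and trophoblast, was at 5.35 and 5.23 FPKM in Dnd1-KD, 2.17 and 1.44 FPKM in CDGC1, 4.07 and 4.08 FPKM in CDGC6, and 5.35 and 4.96 FPKM in control. In CDGC1 Fgfr1 rose (0.66 ± 0.10, adjusted p = 0.00207) and Fgfr2 fell (−1.15 ± 0.14, adjusted p = 0.000921) against control. Both differences passed against CDGC6 as well (0.82 ± 0.10, adjusted p = 0.00102, and −0.87 ± 0.14, adjusted p = 0.00320).

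Outside CDGC1 the receptor differences were small or did not pass. In Dnd1-KD Fgfr1 was lower by a small margin that lay at the threshold (−0.31 ± 0.10, adjusted p = 0.0496) and was lost in 9 of 18 alternatives, while Fgfr2 did not pass (0.032 ± 0.14, adjusted p = 0.880) and changed sign with the scaling. In CDGC6 neither Fgfr1 (−0.16 ± 0.10, adjusted p = 0.279) nor Fgfr2 (−0.28 ± 0.14, adjusted p = 0.199) passed. Fgfr1 exceeded Fgfr2 in every library. The ratio of the 2 levels per transcript length was 4.33 and 3.91 in Dnd1-KD, 20.9 and 29.0 in CDGC1, 6.33 and 5.59 in CDGC6, and 5.06 and 5.51 in control.

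**Figure D2:**
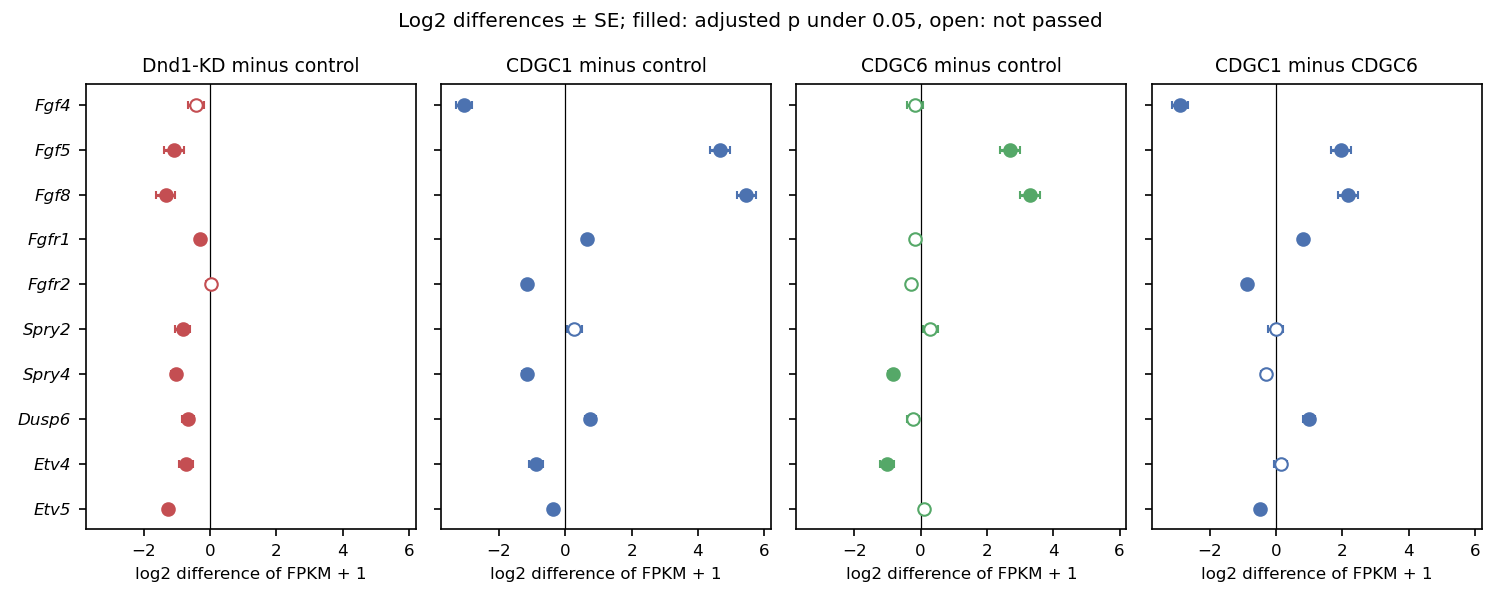
Log2 difference of FPKM + 1 with its SE for the 10 genes (rows) in 4 comparisons (panels), filled where the adjusted p is under 0.05. In Dnd1-KD 8 points are filled and all 8 lie below 0, while in CDGC1 the filled points run from −3.05 (Fgf4) to 5.46 (Fgf8).

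The feedback inhibitor genes Dusp6, Spry4 and Spry2 were lower in Dnd1-KD, but the derived lines split them. Dusp6, the phosphatase of ERK, was at 28.7 and 24.3 FPKM in Dnd1-KD, 74.0 and 70.4 FPKM in CDGC1, 42.9 and 29.5 FPKM in CDGC6, and 43.8 and 40.7 FPKM in control. It fell in Dnd1-KD (−0.66 ± 0.18, adjusted p = 0.0310) and rose in CDGC1 (0.76 ± 0.18, adjusted p = 0.0129). The CDGC6 value did not pass (−0.24 ± 0.18, adjusted p = 0.371), and its 2 libraries lay on either side of the lower control library. Between the derived lines Dusp6 was higher in CDGC1 by 0.9998 ± 0.18 (adjusted p = 0.00498).

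Spry4, a Sprouty inhibitor of receptor tyrosine kinase signalling on chromosome 18 (38586247 to 38601347, minus strand), went the other way from Dusp6 in CDGC1. Its level was 12.2 and 9.15 FPKM in Dnd1-KD, 10.5 and 8.78 FPKM in CDGC1, 11.8 and 12.6 FPKM in CDGC6, and 23.8 and 21.4 FPKM in control. All 6 libraries of the other groups lay below both control libraries. It fell in Dnd1-KD (−1.03 ± 0.15, adjusted p = 0.00509), in CDGC1 (−1.15 ± 0.15, adjusted p = 0.00134) and in CDGC6 (−0.84 ± 0.15, adjusted p = 0.0167), 3 comparisons that share the control libraries. The Dnd1-KD values are uncertain, since their deposited intervals ran from 0 to 6436 FPKM and from 0 to 14671 FPKM. Intervals reaching over 10 times the value were rare, with 122 of 8499 and 96 of 8491 named entries of at least 5 FPKM in these 2 libraries.

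Spry2, the related Sprouty gene, was at 40.7 and 33.8 FPKM in Dnd1-KD, 74.3 and 87.4 FPKM in CDGC1, 64.3 and 103 FPKM in CDGC6, and 65.1 and 67.8 FPKM in control. It fell in Dnd1-KD (−0.82 ± 0.22, adjusted p = 0.0322). It did not pass in CDGC1 (0.28 ± 0.22, adjusted p = 0.343), although both libraries lay above control, or in CDGC6 (0.29 ± 0.22, adjusted p = 0.390), where the libraries lay on either side of control. The ratio of Dusp6 to Spry4 per transcript length was 2.36 and 2.65 in Dnd1-KD, 7.03 and 8.02 in CDGC1, 3.64 and 2.35 in CDGC6, and 1.84 and 1.91 in control. Both CDGC1 libraries exceeded all others in that ratio.

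The ETS factors Etv4 and Etv5, close relatives that FGF signalling is known to induce, both fell in Dnd1-KD and parted in CDGC6. Etv5 was at 63.3 and 52.4 FPKM in Dnd1-KD, 108 and 108 FPKM in CDGC1, 153 and 148 FPKM in CDGC6, and 140.4 and 141 FPKM in control. Its fall in Dnd1-KD (−1.27 ± 0.09, adjusted p = 0.000717) had the smallest adjusted p of the 10 genes there. It was also lower in CDGC1 than in control (−0.37 ± 0.09, adjusted p = 0.0161) and than in CDGC6 (−0.47 ± 0.09, adjusted p = 0.00743), and did not pass in CDGC6 against control (0.096 ± 0.09, adjusted p = 0.495).

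Etv4 was at 25.4 and 20.4 FPKM in Dnd1-KD, 16.4 and 24.9 FPKM in CDGC1, 16.8 and 20.0 FPKM in CDGC6, and 39.5 and 37.0 FPKM in control. Like Spry4 it was lower than in control in each of the other groups, with log2 differences of −0.72 ± 0.21 in Dnd1-KD (adjusted p = 0.0380), −0.88 ± 0.21 in CDGC1 (adjusted p = 0.0135) and −1.02 ± 0.21 in CDGC6 (adjusted p = 0.0237). CDGC1 spanned the values of CDGC6 and part of those of Dnd1-KD, and all 6 libraries lay below both control libraries. Etv5 over Etv4 per transcript length was 2.50 and 2.57 in Dnd1-KD, 6.59 and 4.34 in CDGC1, 9.11 and 7.40 in CDGC6, and 3.56 and 3.82 in control.

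The order of the groups could be read in full for Fgf5 and Fgf8 only. Set directly against Dnd1-KD, CDGC1 differed in 8 of the 10 genes (61.6% of all units in either direction) and CDGC6 in 4 (53.6% of all units). Below control, Spry4 did not separate CDGC6 from Dnd1-KD (adjusted p = 0.332) or Dnd1-KD from CDGC1 (0.512), and Etv4 did not separate Dnd1-KD from CDGC1 (0.532) or CDGC1 from CDGC6 (0.616). For Etv5 the order was CDGC6 and control, not separated (0.495), then CDGC1, then Dnd1-KD, which lay 0.90 below CDGC1 on the log2 scale (adjusted p = 0.000359). For Fgf4, Dnd1-KD lay 2.65 above CDGC1 (adjusted p = 0.000226), and Dusp6 in CDGC6 was not separated from Dnd1-KD (0.0899).

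How firmly these calls stood differed between comparisons. No alternative used the deposited intervals, so none bears on the wide ones of Spry4 in Dnd1-KD (0 to 6436 FPKM and 0 to 14671 FPKM). Of the 8 genes lower in Dnd1-KD, Etv5 and Spry4 passed in all 18 alternatives. Without any 1 of the 4 Dnd1-KD and control libraries they were the only 2 to pass, and all 10 genes kept their sign except Fgfr2 without the second control library. In CDGC6 Fgf5 and Fgf8 passed in all 18 alternatives, and without any 1 of the 4 CDGC6 and control libraries Spry4 and Etv4 did not pass. In CDGC1 against control, Fgf4, Fgf5, Fgf8, Fgfr1, Fgfr2 and Spry4 passed in all 18 alternatives, Etv5 did not pass without any 1 of the CDGC1 and control libraries (adjusted p = 0.0515 to 0.0768), Dusp6 did not pass without the first CDGC1 library (0.0563) or the second control library (0.0662), and Etv4 did not pass without the first control library (0.0661). All 7 calls between CDGC1 and CDGC6 held in all 18 alternatives.

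The wider FGF pathway was read from 6 lists of 93 other genes, of which 74 were tested. In Dnd1-KD 16 of these were higher and 12 lower, with a median log2 difference of 0.068. The CDGC1 line had 28 higher and 16 lower (median 0.12), and CDGC6 had 9 higher and 12 lower (median −0.076), each against control. Between CDGC1 and CDGC6, 30 were higher and 9 lower (median 0.17). The shares of all units given above are the background for these counts and for those of each list below. Fgf10, Flrt2 and Fosl1 are counted although they reached the filter only through groups where they are high.

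**Figure D3:**
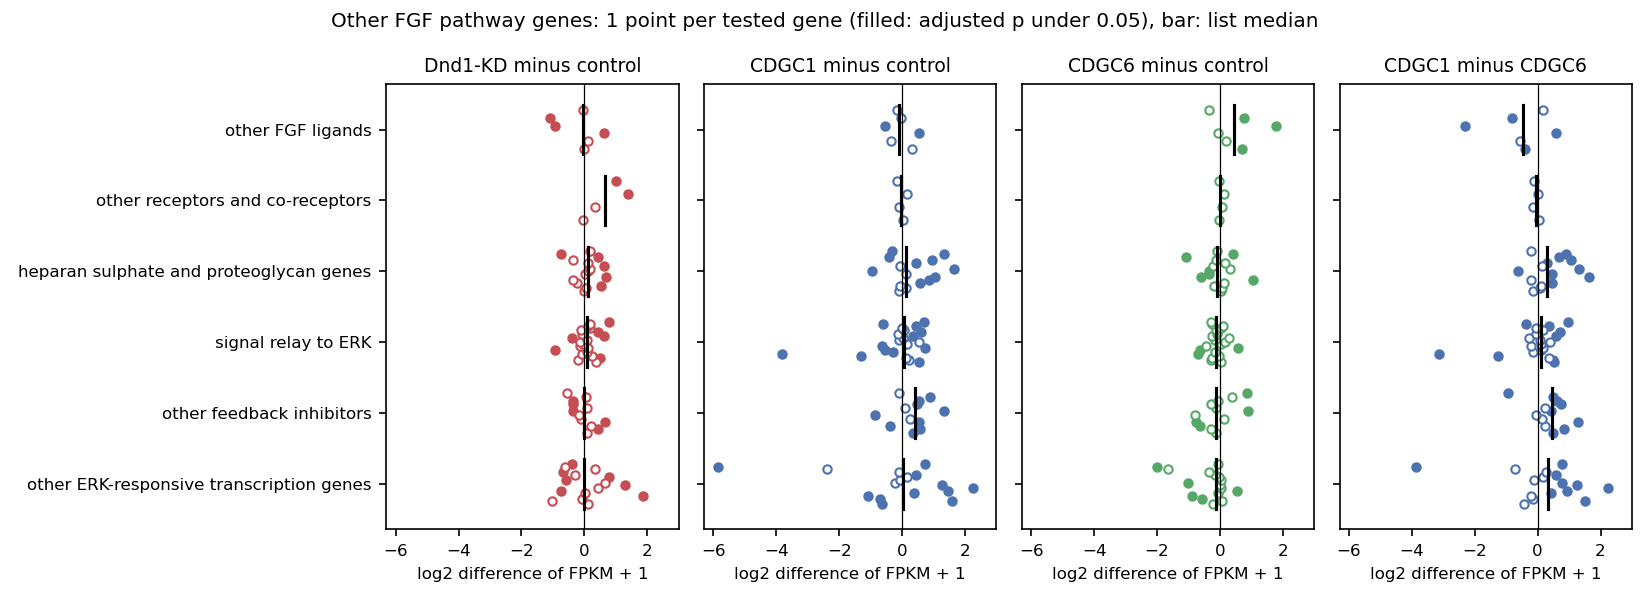
Log2 difference of FPKM + 1 of each tested gene (points, filled where the adjusted p is under 0.05) in 6 lists of other FGF pathway genes (rows) and 4 comparisons (panels), with the list median as a bar. The far left points in CDGC1 minus control are Phlda2, listed at 0 in CDGC1, and Gab1 (−3.83).

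Of 19 other FGF ligand genes, 6 reached the filter. Higher and lower were 1 and 2 in Dnd1-KD, 1 and 1 in CDGC1, 3 and 0 in CDGC6, and 1 and 3 in CDGC1 against CDGC6. Fgf17, a close relative of Fgf8, was at 7.06 and 4.91 FPKM in Dnd1-KD, 13.0 and 13.5 FPKM in CDGC1, 26.0 and 22.5 FPKM in CDGC6, and 12.8 and 14.7 FPKM in control. It fell in Dnd1-KD (−1.10 ± 0.16, adjusted p = 0.00527) and rose in CDGC6 (0.77 ± 0.16, adjusted p = 0.0265), where the call was lost without any 1 of the CDGC6 and control libraries. Its group order, with CDGC6 on top, was not that of Fgf8. Fgf15, the mouse counterpart of human FGF19, showed CDGC6 on top as well, with 0.973 and 0.749 FPKM in Dnd1-KD, 1.73 and 1.22 FPKM in CDGC1, 12.0 and 10.5 FPKM in CDGC6, and 2.69 and 2.47 FPKM in control. It fell in Dnd1-KD (−0.95 ± 0.14, adjusted p = 0.00500) and rose in CDGC6 (1.77 ± 0.14, adjusted p = 0.00138). Its fall in CDGC1 (−0.54 ± 0.14, adjusted p = 0.0187) was lost with quantile normalization (adjusted p = 0.137) and without the second CDGC1 library or either control library. Fgf13, which codes for an FGF that stays inside the cell, was at 6.75 and 9.13 FPKM in Dnd1-KD, 7.66 and 7.03 FPKM in CDGC1, 5.04 and 4.07 FPKM in CDGC6, and 4.69 and 4.86 FPKM in control. It rose in Dnd1-KD (0.62 ± 0.16, adjusted p = 0.0258) and in CDGC1 (0.53 ± 0.16, adjusted p = 0.0301). The Dnd1-KD call was lost without the second Dnd1-KD or either control library (adjusted p up to 0.121), and the CDGC1 call without any 1 of the CDGC1 and control libraries (up to 0.123) and with the replicate block. Fgf10 was at 1.11 and 1.48 FPKM in CDGC6 and below 0.87 FPKM in the other 6 libraries, so it was tested only through the group where it is high. It is counted among the 3 higher in CDGC6 and the 3 lower in CDGC1 against CDGC6, calls that the filter favours.

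Among 8 other receptor and co-receptor genes 4 were tested. Fgfr3 was at 0.872 to 1.41 FPKM over the 8 libraries, and Fgfr4, Kl, Klb and Flrt1 were below the filter. Flrt3, a membrane protein that can bind FGF receptors, rose in Dnd1-KD, at 3.55 and 3.72 FPKM against 1.30 and 1.35 FPKM in control (0.995 ± 0.08, adjusted p = 0.00114). Its relative Flrt2 was at 2.11 and 3.03 FPKM in Dnd1-KD, against 0.335 and 0.347 FPKM in control, and reached the filter through Dnd1-KD alone. None of the 4 passed in either derived line by limma, with 0 at an unadjusted p under 0.05.

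Heparan sulphate is the co-receptor that FGFs need, and all 15 of its listed genes were tested. Higher and lower were 4 and 1 in Dnd1-KD, 7 and 3 in CDGC1, 2 and 4 in CDGC6, and 8 and 1 in CDGC1 against CDGC6. Sulf1, which removes sulphate groups from heparan sulphate, had the group order of Fgf5 and Fgf8. It was at 13.1 and 12.0 FPKM in Dnd1-KD, 55.6 and 56.7 FPKM in CDGC1, 29.3 and 29.3 FPKM in CDGC6, and 22.2 and 20.8 FPKM in control. By limma CDGC1 exceeded CDGC6 (0.92 ± 0.07, adjusted p = 0.000230), and Dnd1-KD was below control (−0.73 ± 0.07, adjusted p = 0.00179). The rise of Sulf1 in CDGC6 over control (0.43 ± 0.07, adjusted p = 0.0135) was lost in 2 alternatives, each with a library left out. In CDGC1 the sulphotransferase gene Hs6st2 rose (1.64 ± 0.10, adjusted p = 6.25e-05) while its relative Hs6st1 fell (−0.95 ± 0.06, adjusted p = 0.000101). Hs6st1 was also lower in CDGC6 (−0.33 ± 0.06, adjusted p = 0.0209), a call lost without any 1 of the CDGC6 and control libraries (up to 0.162). The proteoglycan core gene Gpc4 rose in Dnd1-KD (0.68 ± 0.11, adjusted p = 0.00720) and in CDGC1 (1.05 ± 0.11, adjusted p = 0.000579), and was lower in CDGC6 (−0.59 ± 0.11, adjusted p = 0.0194), a call lost without any 1 of the CDGC6 and control libraries (up to 0.110). Sdc4, another such gene, fell in CDGC6 (−1.09 ± 0.12, adjusted p = 0.00352). It was called higher in Dnd1-KD (0.45 ± 0.12, adjusted p = 0.0282) and lower in CDGC1 (−0.41 ± 0.12, adjusted p = 0.0269), and each of these calls was lost without either control library or without the second library of its own group (up to 0.132 and 0.119), the Dnd1-KD call also with median-ratio scaling (0.0539).

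All 21 genes that relay the signal to ERK were tested. Higher and lower were 4 and 2 in Dnd1-KD, 6 and 6 in CDGC1, 1 and 2 in CDGC6, and 6 and 3 in CDGC1 against CDGC6. Gab1, a docking adaptor that recruits the phosphatase SHP2, was at 75.1 and 73.6 FPKM in Dnd1-KD, 4.51 and 4.64 FPKM in CDGC1, 46.7 and 49.4 FPKM in CDGC6, and 79.9 and 77.0 FPKM in control. It fell in CDGC1 (−3.83 ± 0.06, adjusted p = 1.39e-06) and in CDGC6 (−0.69 ± 0.06, adjusted p = 0.00209), and the lines differed from each other (−3.14 ± 0.06, adjusted p = 3.13e-06). Ptpn11, the gene of SHP2 itself, rose in CDGC1 (0.60 ± 0.08, adjusted p = 0.00111) and in Dnd1-KD (0.42 ± 0.08, adjusted p = 0.00920), where the call was lost without either control library (up to 0.0693). Hras fell in Dnd1-KD (−0.93 ± 0.08, adjusted p = 0.00124), in CDGC1 (−0.55 ± 0.08, adjusted p = 0.00177) and in CDGC6 (−0.65 ± 0.08, adjusted p = 0.00514). The exchange factor gene Sos2 rose in Dnd1-KD (0.79 ± 0.11, adjusted p = 0.00386) and in CDGC1 (0.70 ± 0.11, adjusted p = 0.00243) and did not pass in CDGC6 (−0.27 ± 0.11, adjusted p = 0.127).

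Of 13 other feedback inhibitor genes 12 were tested. Higher and lower were 2 and 3 in Dnd1-KD, 7 and 2 in CDGC1, 2 and 2 in CDGC6, and 7 and 1 in CDGC1 against CDGC6. Il17rd, also called Sef, a membrane inhibitor of FGF signalling, was at 8.23 and 7.41 FPKM in Dnd1-KD, 26.9 and 27.8 FPKM in CDGC1, 22.4 and 18.1 FPKM in CDGC6, and 10.4 and 10.3 FPKM in control. It rose in CDGC1 (1.33 ± 0.11, adjusted p = 0.000223) and in CDGC6 (0.90 ± 0.11, adjusted p = 0.00563). Its lower value in Dnd1-KD lay at the threshold (−0.36 ± 0.11, adjusted p = 0.0481) and was lost in 10 of 18 alternatives, among them each that left out a Dnd1-KD, CDGC1 or control library (up to 0.202). The Sprouty-related gene Spred2 rose in CDGC1 (0.54 ± 0.07, adjusted p = 0.00163) and fell in Dnd1-KD (−0.35 ± 0.07, adjusted p = 0.0157), where the call was lost without the second Dnd1-KD or either control library (up to 0.101). Dusp5 was higher in Dnd1-KD, at 16.4 and 16.0 FPKM against 9.74 and 10.2 FPKM in control (0.65 ± 0.17, adjusted p = 0.0280). That call was lost in 5 of 18 alternatives. Against control, Dusp5 was also called higher in CDGC1 (0.53 ± 0.17, adjusted p = 0.0405) and lower in CDGC6 (−0.76 ± 0.17, adjusted p = 0.0306). These calls were lost in 11 and 7 alternatives. Between the derived lines Dusp5 was higher in CDGC1 (1.28 ± 0.17, adjusted p = 0.00158), a call that held in all 18. Spry1 rose in CDGC6 (0.86 ± 0.19, adjusted p = 0.0278), a call lost without any 1 of 6 libraries, those of CDGC6, control and Dnd1-KD.

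The last list, labelled other ERK-responsive transcription genes, held 17 genes, of which 16 were tested. The label covers some that are not transcription factors, such as Phlda2. Whether ERK sets the levels of these genes here was not tested. Higher and lower were 3 and 4 in Dnd1-KD, 7 and 4 in CDGC1, 1 and 4 in CDGC6, and 8 and 1 in CDGC1 against CDGC6. Etv1, the third member of the family of Etv4 and Etv5, was at 2.63 and 2.43 FPKM in Dnd1-KD, 15.9 and 14.5 FPKM in CDGC1, 7.72 and 7.19 FPKM in CDGC6, and 5.12 and 4.58 FPKM in control. It rose in CDGC1 (1.47 ± 0.10, adjusted p = 9.50e-05), where Etv4 and Etv5 fell, and in CDGC6 (0.53 ± 0.10, adjusted p = 0.0178), a call lost without the first CDGC6 library or either control library. In Dnd1-KD Etv1 fell (−0.73 ± 0.10, adjusted p = 0.00390), as did Etv4 and Etv5. Ets1 was at 15.9 and 16.8 FPKM in Dnd1-KD, 1.55 and 0.991 FPKM in CDGC1, 1.82 and 1.39 FPKM in CDGC6, and 3.50 and 4.08 FPKM in control. It rose in Dnd1-KD (1.86 ± 0.15, adjusted p = 0.00124) and fell in CDGC1 (−1.08 ± 0.15, adjusted p = 0.00188) and in CDGC6 (−0.88 ± 0.15, adjusted p = 0.0156), where the call was lost without the second CDGC6 or either control library (up to 0.106). Phlda2, an imprinted growth inhibitor gene, was at 40.8 and 33.1 FPKM in Dnd1-KD, listed at 0 in both CDGC1 libraries, at 10.3 and 17.7 FPKM in CDGC6, and at 56.5 and 57.0 FPKM in control. Fosl1 was listed at 0 in all CDGC6 and control libraries and was at 1.25 to 1.69 FPKM in Dnd1-KD and CDGC1. It reached the filter only through the groups where it is high. It is counted among the higher genes in Dnd1-KD, in CDGC1 and in CDGC1 against CDGC6, calls that the filter favours.

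Genes with profiles most like those of 5 of the members were sought among 10598 single genes with no library at 0, by the root-mean-square difference of centred log2(FPKM + 1) over the 8 libraries. Nearest to Fgf4 were Tfpi (0.18), Rfx2 (0.19) and Capsl (0.22), on a profile that spans 3.33 log2 units. Nearest to Fgf5 were Mab21l2 (0.63), Fst (0.70) and Apln (0.72), and the same 3 genes were nearest to Fgf8 at 1.02, 1.09 and 0.99. Fst, the secreted ACTIVIN antagonist follistatin, averaged 4.02 FPKM in Dnd1-KD, 98.9 FPKM in CDGC1, 20.6 FPKM in CDGC6 and 5.58 FPKM in control. Nearest to Spry4 were Clpb (0.12), Tsn (0.16) and Tns3 (0.16), and nearest to Dusp6 were Cyp11a1 (0.13), Sdc1 (0.14) and Podxl (0.14). Further genes lay within 2 times the smallest distance. Counting those named, there were 60 such genes for Fgf4, 47 for Fgf5, 158 for Fgf8, 31 for Spry4 and 144 for Dusp6. Cyp11a1 was at 1.99 and 1.79 FPKM in CDGC1 and below 0.67 FPKM in the other groups, so it was tested only through CDGC1. These are descriptions over 8 libraries of 4 groups.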

How the data were processed

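The files are Cufflinks gene tables, 1 per library, as deposited, with FPKM and the bounds of its interval, per the file headers. Build mm10 and the tools TopHat2, Bowtie, Cufflinks and Cuffdiff come from the submitters' processing notes, which give no versions or roles here. Per the labels, libraries were made with a TruSeq RNA v2 kit. The files hold no read counts. Implied fragments were computed as the squared ratio of 2 times the FPKM to the distance from the FPKM to its upper bound.

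Symbols that any table joined were summed as 1 unit. Entries without a gene name (76.8% to 85.6% of summed FPKM) and small RNA genes were left out, and spreadsheet dates in place of names were kept as such. Units that reached 1 FPKM in 2 or more libraries were tested with limma 3.58.1 (R 4.3.3) on log2(FPKM + 1) in a single fit of all 8 libraries with 4 group means. The test was two-sided eBayes moderated with a trend, with Benjamini-Hochberg adjustment and a threshold of 0.05. The same fit was also run on data simulated from the means and spreads of these libraries, with results not given here. Tables and figures used Python 3.11.15, pandas 2.3.3, numpy 2.4.6 and matplotlib 3.10.9. All 10 members are named, up to 3 called genes per pathway list and comparison with the smallest adjusted p, and the 3 nearest profiles of 5 members. Fgfr3 and further comparisons of the genes so named are given outside this rule. The members and lists were chosen with earlier results of these data known. The 18 alternatives were 2 pseudocounts (0.1 and 5), no filter and a filter at 5 FPKM, 2 scalings, only the compared groups, the replicate block, the highest entry per symbol, eBayes without trend, and each of 8 libraries left out.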

Additional observations from a re-analysis of the deposited data

Results flagged for a closer look

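Between CDGC1 and CDGC6 the difference from control was not the same for 7 of the 10 genes, by limma's test of CDGC1 against CDGC6. Of all units tested, 23.0% were higher and 24.1% lower in that comparison. CDGC1 exceeded CDGC6 by log2 differences of 1.97 for Fgf5, 2.16 for Fgf8, 0.82 for Fgfr1 and 0.9998 for Dusp6. CDGC1 was below CDGC6 by −2.88 for Fgf4, −0.87 for Fgfr2 and −0.47 for Etv5.

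Assembled transcripts without a gene name lay at 3 of the genes above the level in control. Within Fgf8 each CDGC1 library held 1 such entry, at chr19:45742064-45742319 with 22.8 FPKM and at chr19:45742068-45742310 with 24.8 FPKM, overlapping no Fgf8 exon of GENCODE vM21. No other library had an unnamed entry at Fgf8. Upstream of the Spry2 start, 433 and 413 bases from it, an unnamed entry had 6.98 and 8.01 FPKM in CDGC6, against 2.65 and 3.69 FPKM in control at 411 bases. The first CDGC1 library listed one at 407 bases with 3.69 FPKM. At Fgfr1 the 2 Dnd1-KD libraries had unnamed entries of 1.76 and 4.01 FPKM at different places, and control had none. That of the first library lay 4568 bases upstream of the RefSeq start, with 153 bases in GENCODE exons of Fgfr1. That of the second lay within the gene, outside exons. The second CDGC1 and the second CDGC6 library had 1 unnamed entry each, of 2.63 and 2.71 FPKM. In both CDGC1 libraries the named Fgfr1 entry also began upstream of the RefSeq start, at 25513630 and 25513587. No strand or test goes with these values.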

How the results depend on the processing

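Over 40 results (10 genes in 4 comparisons) and 18 alternatives, 661 of 720 values kept their sign and side of the threshold, 50 no longer passed, 41 of these with a library left out, and 9 changed sign, none of which had passed. Of 28 calls 17 held throughout. The count of genes called in Dnd1-KD, 8, became 5 with a pseudocount of 5 and ranged from 2 to 8 with a library left out. The count in CDGC6, 4, ranged from 2 to 4, that in CDGC1, 9, from 7 to 9, and the counts for CDGC1 against CDGC6 and CDGC1 against Dnd1-KD stayed at 7 and 8. CDGC6 against Dnd1-KD gave 4, and 4 to 5 with a library left out. The wider lists had 59 units called in at least 1 comparison, and 46 to 58 with a library left out. Fgfr2 in Dnd1-KD (0.032) became −0.085 with quantile normalization, −0.013 with median-ratio scaling and between −0.013 and 0.077 with a library left out. Spry2 in CDGC1 against CDGC6 (−0.016) became 0.0078 with median-ratio scaling and ranged from −0.35 to 0.32. With a library left out Etv4 there ranged from −0.15 to 0.42, and in CDGC6 Spry2 ranged from −0.046 to 0.63 and Dusp6 from −0.50 to 0.023. The cause was not tested. Quantile normalization moved the median of all units by over 0.1 in 1 comparison, CDGC1 against Dnd1-KD (−0.093 before, 0.010 after).

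The samples share only a replicate number, and deviations of same-numbered libraries correlated at −0.077 to 0.14. With the replicate block 7 genes passed in Dnd1-KD, without Etv4 (adjusted p = 0.0558), and 9, 4 and 7 in the other comparisons.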

Other observations

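Fos, Egr1 and Dusp9 were singled out after their values were seen. Fos and Egr1 are genes that ERK activity is known to induce at once, and both rose in CDGC1, while Ier2, Ier3, Myc and Fosl2 of the same list did not pass there (log2 differences of −0.080, 0.15, −0.083 and −0.23, adjusted p = 0.560, 0.253, 0.679 and 0.475). Fos was at 4.31 and 6.88 FPKM in Dnd1-KD, 16.2 and 28.9 FPKM in CDGC1, 3.89 and 3.73 FPKM in CDGC6, and 3.35 and 4.15 FPKM in control. Its log2 difference from control in CDGC1 was 2.26 ± 0.30 (SE, limma adjusted p = 0.00136). Egr1, an early response gene as well, was at 6.14 and 7.71 FPKM in Dnd1-KD, 32.1 and 68.0 FPKM in CDGC1, 15.7 and 15.8 FPKM in CDGC6, and 12.0 and 18.5 FPKM in control. In CDGC1 it rose against control (1.59 ± 0.36, adjusted p = 0.0118), with the 2 CDGC1 libraries far apart, and the call was lost without the first control library (0.0645) and when the fit held CDGC1 and control alone. The ERK phosphatase gene Dusp9 went the other way from Dusp6 there, at 30.2 and 21.7 FPKM in CDGC1 against 51.4 and 43.5 FPKM in control (−0.86 ± 0.26, adjusted p = 0.0324), a call lost in 5 of 18 alternatives, each with a library left out (up to 0.139).

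Spry2 over Spry4 per transcript length was 3.35 and 3.70 in Dnd1-KD, 7.06 and 9.95 in CDGC1, 5.45 and 8.22 in CDGC6, and 2.73 and 3.17 in control, and the 4 libraries of the derived lines exceeded the other 4.

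Within Etv4 the second CDGC6 library alone listed an unnamed entry of 98 bases, outside annotated exons, at 251 FPKM, with a deposited interval of 117 to 385 FPKM.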
